A study of Mus musculus with 6 samples.

Results

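The genes described here encode the nuclear subunits of respiratory complexes II, III, IV and V of the mitochondrial inner membrane. They were chosen by gene symbol, as Sdha to Sdhd, Cyc1 and all names beginning with Uqcr, Cox4 to Cox8 or Atp5. That rule found 45 of the 32025 transcript rows on the arrays, for 41 of 20263 named genes: 4 of complex II, 7 of complex III, 17 of complex IV and 13 of complex V. Where a gene had 2 rows, the row of higher mean over all arrays stood for it. A further 7 protein-coding genes with such names, Atp5l, Atp5h, Atp5g2, Atp5md, Uqcr11, Uqcrb and Cox7c, had no matching row and are not analysed here.

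The cells were mouse neural stem cells of the CD-1 albino strain at embryonic stage E14.5, kept dividing as neurospheres, a culture of free-floating clusters of progenitor cells. By the submitters' design text, such cells normally lack miR-128. In the first group, miR-128, a mimic of that microRNA was introduced by nucleofection, an electrical transfection, and in the second group, miR-Control, a control RNA was introduced in the same way. RNA was prepared after 72 h. Each group has 3 biological replicates by the submitters' account, and each replicate was read on an exon array of its own. The control arm thus shares the nucleofection and the culture with the miR-128 arm, and the cells carry no labelled genetic change. A mimic sets a level of microRNA from outside, and the labels give neither its dose nor its sequence. The comparison asks what sets neural stem cells given miR-128 apart from those given the control.

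The complexes work as a relay. Complex II (succinate dehydrogenase) oxidises succinate in the citrate cycle and hands the electrons to ubiquinone, complex III (the cytochrome bc1 complex) passes them from ubiquinol to cytochrome c, and complex IV (cytochrome c oxidase) passes them on to oxygen. Complexes III and IV pump protons as they do so, and complex V (ATP synthase) lets the protons flow back and makes ATP. All subunits of complex II are encoded in the nucleus, while complexes III, IV and V combine nuclear subunits with a few made from mitochondrial DNA. Neural stem cells are known for relying strongly on glycolysis, with oxidative phosphorylation gaining weight as they become neurons.

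The sequence of miR-128-3p and short stretches of the members' promoters are shown first, since the values below are those of genes under these promoters in cells given a miR-128 mimic. The labels do not say which arm the mimic copies, and the 3p arm is shown as an assumption. RefSeq (GRCm38.p6) lists the same mature miR-128-3p at chr1:128202404-128202424 on the plus strand and at chr9:112118644-112118664 on the minus strand. Its sequence follows, with the seed, bases 2 to 8, in capitals.
miR-128-3p: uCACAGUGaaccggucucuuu

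Promoter windows of RefSeq, 300 bases each around the annotated gene start, were found for 30 of the 41 genes. They were searched on both strands for the motifs of 4 factors known to act on respiratory genes or on many housekeeping promoters. The NRF1 motif, a palindrome whose letters are the capitals in the NRF1 lines below, was in the promoters of 3 of the 30 genes (Uqcrc1, Cox6a1 and Atp5k) and in 0.971% of all 32851 promoters. The GABPA motif CCGGAAG was in 9 of the 30 genes and in 8.86% of all promoters, the YY1 motif AAGATGGC in 3 genes and 2.75% of all promoters, and the SP1 motif GGGCGG in 12 genes and 35.7% of all promoters. The 28 bases around 7 such matches are printed here, picked as examples, partly for the values of the members below. Other matches, such as those of Uqcrh and Atp5j, are not printed. Capitals mark the match, and all are in the direction of the gene's transcription.
Sdhb, GABPA, chr4:140961267-140961294, plus strand: ctcggagaaaCCGGAAGcggccttccac
Sdhd, GABPA, chr9:50603878-50603905, minus strand: cgtctcctgcCTTCCGGttcacgcttca
Uqcrc1, NRF1, chr9:108936669-108936696, plus strand: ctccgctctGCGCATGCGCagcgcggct
Cox6a1, NRF1, chr5:115349102-115349129, minus strand: aggaacgggGCGCATGCGCgctctcgct
Atp5k, NRF1, chr5:108434431-108434458, minus strand: ttcactgcgGCGCATGCGCctttctggc
Atp5e, GABPA, chr2:174464186-174464213, minus strand: acggccacagCTTCCGGtagccgctcgg
Atp5pb, YY1, chr3:105959249-105959276, minus strand: tgtgcgagcgGCCATCTTgctcctgccc
The promoter of Atp5o held none of the 4 motifs within this window. The matches describe the letters only, and binding was not measured.

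No transcript row of the whole table passed an adjusted p of 0.05 in limma's test (0%; lowest adjusted p 0.192), so none of the 41 members did either. Without adjustment, p was under 0.05 in 997 rows that were lower with miR-128 (3.11%) and in 1294 that were higher (4.04%). The median row had a 95% interval reaching 0.29 to each side of its log2 fold change, or 1.22-fold. One array, miR-Control replicate 3, was far from the rest: its score on principal component 1 (35.4% of the variance) was 42.5, and the other arrays scored -18.7 to -0.23. The counts over the 41 members and the medians of the complexes are therefore also given without it. Markers of neural stem cells were measured in 11 of 11 genes, of which the 2 of smallest p were Fabp7 at -0.30 (limma adjusted p = 0.641), lower with miR-128 without overlap, and Hes5 at 0.33 (limma adjusted p = 0.730), with overlap. Of other defining markers, Sox2 was at 12.04 with miR-128 and 11.94 in miR-Control, Vim at 13.56 with miR-128 and 13.57 in miR-Control, and Nes at 10.77 with miR-128 and 11.06 in miR-Control on the log2 scale. No detection call was available for any row.

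The members lay slightly lower with miR-128 as a group, by an amount smaller than the error of nearly every single gene. Of the 41, 28 (68.3%) had a lower mean with miR-128, against 43.2% of all rows and 47.9% of rows above the median level. Their median log2 fold change, miR-128 over miR-Control, was -0.08, against 0.02 over all rows. After quantile normalization 26 of 41 members and 49.7% of all rows were lower, and after median centring 32 of 41 members and 51.6% of all rows. Complex II and complex V held most of the lower values, with 4 of 4 and 11 of 13 genes lower, while complex IV was spread around 0, with 8 of 17 lower. The difference between the complexes was not tested.

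At an unadjusted p under 0.05, 2 members were lower with miR-128, Atp5e and Atp5o, and 0 were higher, beside the 3.11% and 4.04% of all rows. The 3 miR-128 arrays lay below all 3 controls in 4 members, Uqcrc1, Atp5e, Atp5o and Atp5pb, where 4.87% of all rows did so, and above them in 1, Cox6a2, where 6.98% did. Of rows above the median level, which hold 34 of the 41 members, 4.78% were lower and 3.95% higher at that unadjusted p, and 7.34% were lower and 6.28% higher without overlap. Read against these shares, the counts of members are no result about them. The largest difference of a member was 1.27-fold, for Atp5o, and 18 of the 41 differed by less than 0.1 on the log2 scale. Interval bounds over the members reached -0.66 and 0.58, so differences beyond 1.58-fold lower or 1.5-fold higher lay outside the 95% interval of the row that stands for each member.

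**Figure D1:**
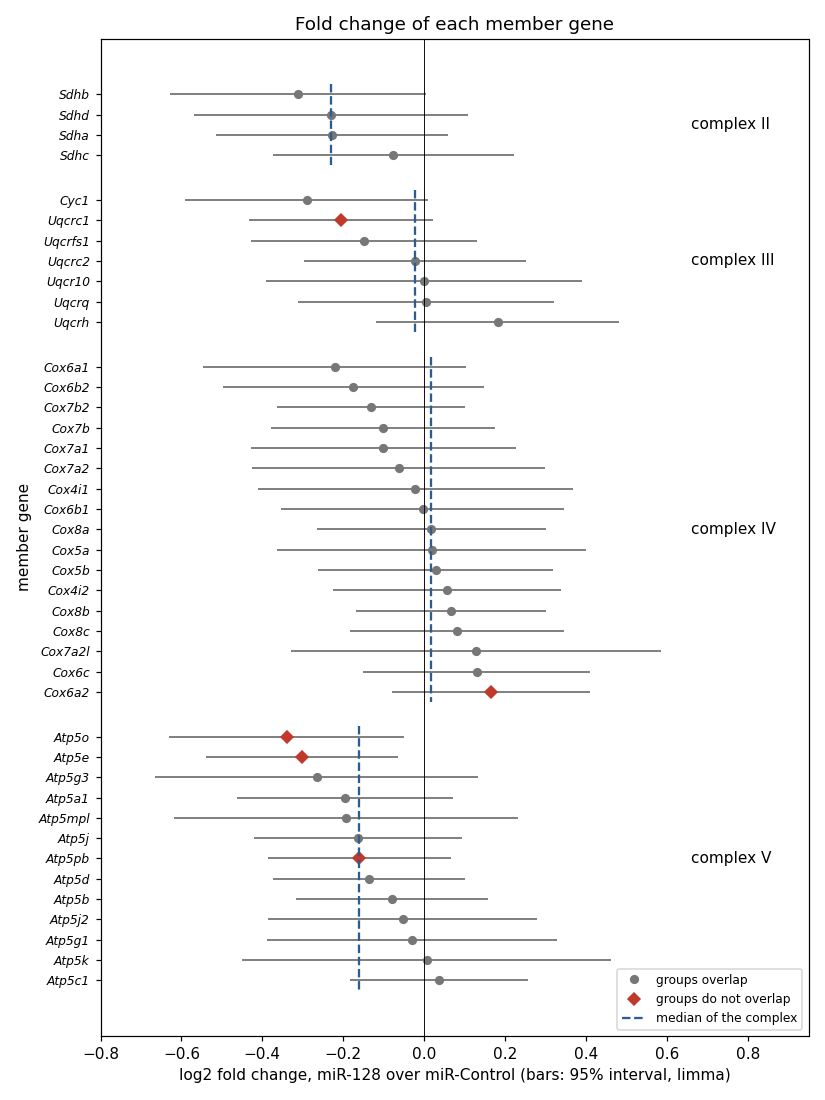
Log2 fold change of each of the 41 genes, miR-128 over miR-Control, with its 95% interval from limma (n = 3 arrays per group), by complex. Red diamonds mark the 5 genes whose groups do not overlap, dashed lines the median of each complex, at -0.23, -0.02, 0.02 and -0.16 for complexes II to V. Only Atp5o and Atp5e have an interval that leaves out 0.

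The arrays of each group did not sit at one level, and the pattern ran through most members. The miR-128 replicate 1 array was the lowest of its group in 25 of 41 genes, and miR-Control replicate 3 was the lowest control in 27 of 41. In the 7 tissue-restricted genes of complex IV, described below, miR-Control replicate 3 was instead the highest control. Their mean levels over all arrays were 4.06 to 7.51, near or below the array medians of 7.40 to 7.54. The values of miR-Control replicate 3 also had the smallest interquartile range, 2.87, against 2.98 to 3.22 on the other arrays. The median deviation of the 41 genes from their miR-Control mean was -0.21, -0.03 and -0.09 in miR-128 replicates 1 to 3, and 0.11, 0.02 and -0.12 in miR-Control replicates 1 to 3. By this measure the third control lay between the miR-128 arrays. Rows above the median level had 0.000846, 0.00162 and 0.01 with miR-128 and 0.02, 0.05 and -0.07 in the controls, so that replicate 3 was also the lowest control there.

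Without miR-Control replicate 3, 31 of the 41 members were lower, with a median of -0.16, 8 were lower and 1 higher at an unadjusted p under 0.05, and the lowest adjusted p was 0.288, for Sdhd. The whole table shifted as well in that setting, to 5.84% of all rows lower and 6.59% higher at that p. Without miR-128 replicate 1, 23 of 41 were lower with a median of -0.08, and 0 reached an unadjusted p under 0.05 in either direction, where 1.65% of all rows were lower and 2.36% higher at that p. Without miR-Control replicate 1, the count of lower members was also 23, the median was -0.03, and again 0 reached that p, beside 3.31% of all rows lower and 4.25% higher. Without miR-128 replicate 2, 31 of 41 were lower with a median of -0.09. At that p 6 were lower and 0 higher, beside 3.08% of all rows lower and 3.77% higher. Under limma's array weights, 33 of 41 were lower with a median of -0.17. At that p 12 were lower and 0 higher, beside 6.67% of all rows lower and 7.62% higher. The count of lower members at that p thus ran from 0 to 12 between these settings. The spread between controls exceeded that between miR-128 arrays in 27 of 41 genes, with median SDs of 0.126 with miR-128 and 0.185 in miR-Control.

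**Figure D2:**
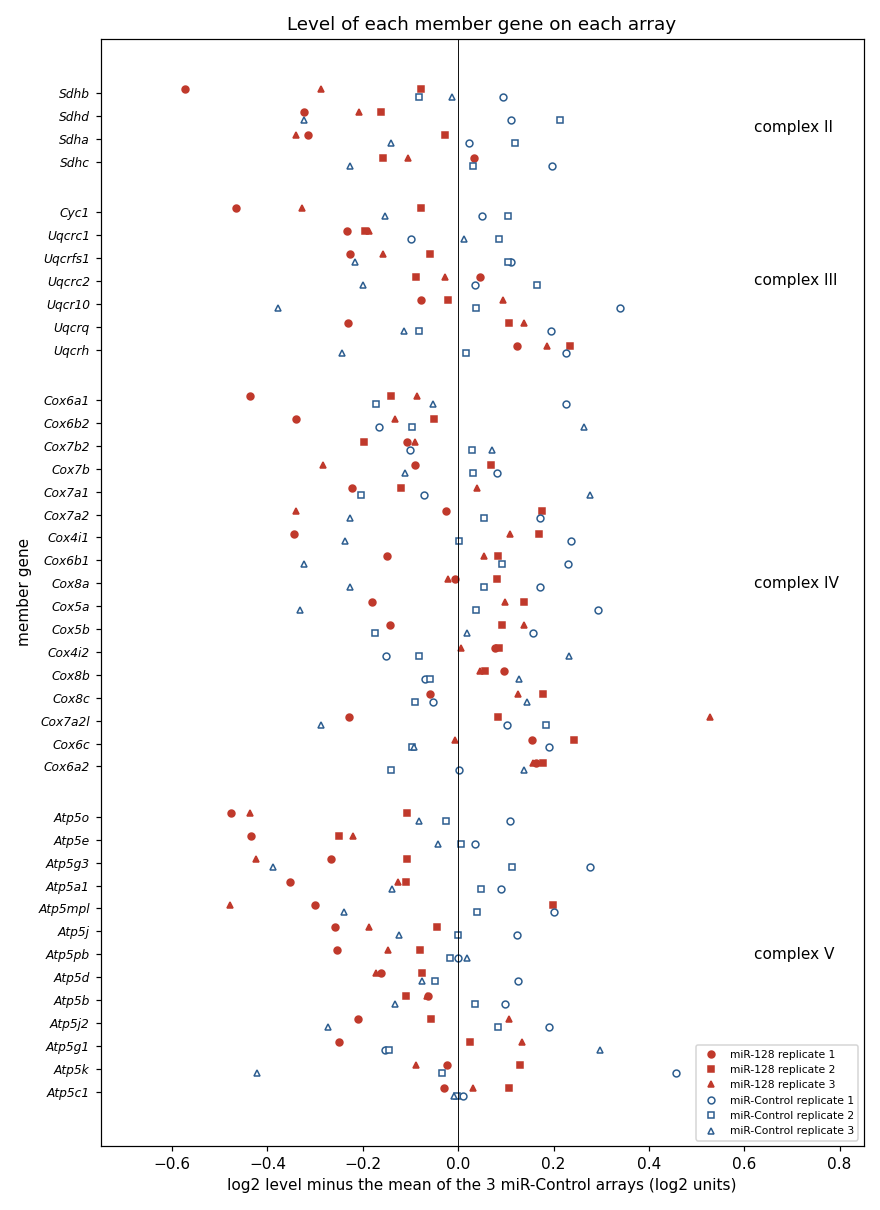
Log2 level of each gene on each of the 6 arrays minus its miR-Control mean, by complex and ordered by fold change. Filled red symbols are miR-128 arrays, open blue symbols are miR-Control arrays, and the symbol's shape gives the replicate. In Atp5e, Atp5o, Atp5pb and Uqcrc1 every red symbol lies left of every blue one, and in Uqcrfs1 miR-Control replicate 3 lies among the red symbols.

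All 4 genes of complex II had lower means with miR-128, with a median log2 fold change of -0.23 and a range from -0.31 to -0.08, and none passed the test. Sdhb encodes the iron-sulphur subunit that carries electrons from the flavin towards ubiquinone. It had log2 levels of 9.34, 9.84 and 9.63 in miR-128 replicates 1 to 3 and 10.01, 9.83 and 9.90 in miR-Control replicates 1 to 3. The miR-128 replicate 2 array lay just above the lowest control, so the groups overlapped at that one pair. Its log2 fold change was -0.31 (SE 0.14, limma adjusted p = 0.703).

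Sdha, the flavoprotein that oxidises succinate, had 11.46, 11.75 and 11.43 with miR-128 and 11.80, 11.89 and 11.63 in miR-Control, with a log2 fold change of -0.23 (SE 0.13, limma adjusted p = 0.786). Again a single pair of arrays overlapped, miR-128 replicate 2 and miR-Control replicate 3. Sdhd, one of the 2 membrane anchors that form the ubiquinone site, had 10.50, 10.66 and 10.61 with miR-128 and 10.93, 11.03 and 10.50 in miR-Control, a difference of -0.23 (SE 0.15, limma adjusted p = 0.851). Here the 2 other controls stood well above all miR-128 arrays and replicate 3 stood at their lower end. Sdhc, the other anchor, had 11.67, 11.48 and 11.53 with miR-128 and 11.84, 11.67 and 11.41 in miR-Control, and its difference of -0.08 (95% interval -0.37 to 0.22) was within the spread of the controls. Without miR-Control replicate 3 the median of the 4 genes was -0.31.

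In complex III the 4 genes of the core and of the electron path had lower means with miR-128, from -0.29 to -0.02, and the 3 accessory genes lay between -0.0016 and 0.18. The median over the 7 genes was -0.02 with all arrays and -0.19 without miR-Control replicate 3. Cyc1, cytochrome c1, which delivers electrons to cytochrome c, had 10.80, 11.19 and 10.94 with miR-128 and 11.32, 11.37 and 11.12 in miR-Control. Only miR-128 replicate 2 and miR-Control replicate 3 crossed. Its log2 fold change was -0.29 (SE 0.13, limma adjusted p = 0.711).

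Uqcrc1, a core protein on the matrix side, had 11.48, 11.52 and 11.53 with miR-128, against 11.62, 11.80 and 11.73 in miR-Control. The miR-128 arrays were close together and all below the controls, with a difference of -0.21 (SE 0.10, limma adjusted p = 0.741). Uqcrc2, its partner in the core, differed by only -0.02 (95% interval -0.30 to 0.25). Uqcrfs1, the Rieske iron-sulphur protein that takes electrons from ubiquinol, had 8.92, 9.09 and 8.99 with miR-128 and 9.26, 9.25 and 8.93 in miR-Control, a difference of -0.15 (SE 0.12, limma adjusted p = 0.916), with miR-Control replicate 3 at the level of the miR-128 arrays.

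Uqcrh, the acidic hinge protein near cytochrome c1, had the highest fold change of the 41 genes. Its levels were 10.74, 10.85 and 10.80 with miR-128 and 10.84, 10.63 and 10.37 in miR-Control. The difference of 0.18 (SE 0.13, limma adjusted p = 0.887) rested on the lower controls 2 and 3, and control replicate 1 lay among the miR-128 arrays. The small subunits Uqcr10 and Uqcrq had 95% intervals of -0.39 to 0.39 and -0.31 to 0.32. RefSeq lists pseudogenes named after Uqcrh, Cox5b, Atp5c1, Atp5k and Atp5pb among 14 pseudogene names that match the rule, and whether probes of these rows also read them was not tested.

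Complex IV had no common direction. Its 17 genes ranged from -0.22 to 0.17, with 9 of them within 0.1 of 0 and a median of 0.02, which turned to -0.01 when arrays were centred on their medians, to -0.04 without miR-Control replicate 3 and to -0.08 under limma's array weights. It was 0.05 without miR-128 replicate 1 and also 0.05 without miR-Control replicate 1. It was below 0 in 5 of 16 settings, some of which cannot change a fold change and repeat the main median. Cox4i1, the regulatory subunit that most tissues use and that binds adenine nucleotides, had 10.30, 10.81 and 10.75 with miR-128 and 10.88, 10.64 and 10.40 in miR-Control. The arrays of both groups were interleaved, with a difference of -0.02 (95% interval -0.41 to 0.37, limma adjusted p = 0.997). Cox5a, which lies on the matrix side, had 9.96, 10.28 and 10.24 with miR-128 and 10.44, 10.18 and 9.81 in miR-Control, a difference of 0.02 (95% interval -0.36 to 0.40, limma adjusted p = 0.997) whose sign turned with centring.

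Several subunits of this oxidase exist in a general and a tissue-restricted form. Cox6a2, Cox7a1 and Cox8b are the forms of heart and skeletal muscle, Cox6b2, Cox7b2 and Cox8c are known from testis, and Cox4i2 is known from lung and from hypoxia. The 10 general genes, Cox7a2l included, had a median of 0.01 with 5 lower, and the 7 restricted ones a median of 0.06 with 3 lower. In all 7 restricted genes miR-Control replicate 3 was the highest control, so their differences also depend on that outlying array. Levels of different rows depend on their probes and are not compared here.

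For subunit 6a the general and the muscle forms differed in sign. Cox6a1 had 10.92, 11.21 and 11.27 with miR-128 and 11.58, 11.18 and 11.30 in miR-Control, a difference of -0.22 (SE 0.14, limma adjusted p = 0.851), with overlapping groups. Cox6a2 had 7.59, 7.60 and 7.58 with miR-128, against 7.43, 7.29 and 7.56 in miR-Control, a difference of 0.17 (SE 0.11, limma adjusted p = 0.853). Its miR-128 arrays agreed to within a few hundredths and lay above all controls, the nearest being miR-Control replicate 3. Whether the 2 forms differ from each other was not tested.

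In the other pairs, as in Cox6a1 and Cox6a2, every 95% interval included 0. For subunit 4, Cox4i2 differed by 0.06 beside the -0.02 of Cox4i1. Cox6b2 differed by -0.17 beside -0.00361 for Cox6b1, and Cox7a1 by -0.10 beside -0.06 for Cox7a2. Cox7b2 had 4.02, 3.93 and 4.03 with miR-128 and 4.02, 4.15 and 4.19 in miR-Control, a difference of -0.13 (SE 0.10, limma adjusted p = 0.902), beside -0.10 for Cox7b. One miR-Control array lay among the miR-128 values, and the other two lay above them. The 3 forms of subunit 8 differed by 0.02 for Cox8a, 0.07 for Cox8b and 0.08 for Cox8c, and Cox6c and Cox5b, which have no second form in this set, by 0.13 and 0.03.

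Complex V had 11 of 13 genes lower with miR-128, a median log2 fold change of -0.16 and a range from -0.34 to 0.04. Without miR-Control replicate 3 its median was -0.21. In its F1 part, which protrudes into the matrix and makes ATP, 4 of 5 genes were lower. The catalytic beta subunit Atp5b had 13.36, 13.32 and 13.36 with miR-128 and 13.52, 13.46 and 13.29 in miR-Control, a difference of -0.08 (95% interval -0.32 to 0.16, limma adjusted p = 0.962). The alpha subunit Atp5a1, which alternates with beta around the head, had 12.39, 12.64 and 12.62 with miR-128 and 12.84, 12.79 and 12.61 in miR-Control, a difference of -0.20 (SE 0.12, limma adjusted p = 0.822). In both genes 2 controls lay above all miR-128 arrays and miR-Control replicate 3 did not.

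The central stalk of F1 turns inside the head. Its epsilon subunit Atp5e had 8.21, 8.39 and 8.42 with miR-128, against 8.68, 8.65 and 8.60 in miR-Control, miR-Control replicate 3 included. This was the member of smallest p, with a log2 fold change of -0.30 (SE 0.10, 95% interval -0.54 to -0.06, limma adjusted p = 0.589), equal to 1.23-fold. Atp5d, the delta subunit, differed by -0.14 (95% interval -0.37 to 0.10). Atp5c1, the gamma subunit that forms the shaft, had 12.85, 12.98 and 12.91 with miR-128 and 12.89, 12.87 and 12.87 in miR-Control, a difference of 0.04 (95% interval -0.18 to 0.26), and its controls had an SD of only 0.00947.

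The peripheral stalk holds the head still while the shaft turns, and its 3 measured genes were all lower with miR-128. Atp5o, the subunit named for oligomycin sensitivity that joins the stalk to the head, had 10.53, 10.90 and 10.57 with miR-128, against 11.11, 10.98 and 10.92 in miR-Control. The groups did not overlap, though miR-128 replicate 2 came within a few hundredths of the lowest control, and the log2 fold change was -0.34 (SE 0.13, 95% interval -0.63 to -0.05, limma adjusted p = 0.636). Atp5pb, the long b subunit of the stalk, had 9.27, 9.44 and 9.37 with miR-128, against 9.52, 9.50 and 9.54 in miR-Control, again without overlap, for a difference of -0.16 (SE 0.10, limma adjusted p = 0.831). Atp5j, coupling factor 6, differed by -0.16 (95% interval -0.42 to 0.09).

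The Fo part carries the proton path through the membrane, and 4 of its 5 measured genes were lower, with a median of -0.05. Atp5g1 and Atp5g3 both encode the c subunit that makes up the rotating ring, with the same mature peptide behind different import sequences. Atp5g3 had 11.81, 11.97 and 11.66 with miR-128 and 12.36, 12.19 and 11.69 in miR-Control, a difference of -0.27 (SE 0.18, limma adjusted p = 0.861), with miR-Control replicate 3 among the miR-128 arrays. The membrane subunits Atp5mpl, Atp5j2 and Atp5k differed by -0.19, -0.05 and 0.01, each with an SE of 0.15 to 0.20.

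Atp5g1 had 2 transcript rows, and they did not give the same picture. The row of higher level, NM_001161419, had 9.19, 9.47 and 9.57 with miR-128 and 9.29, 9.30 and 9.74 in miR-Control, a difference of -0.03 (95% interval -0.39 to 0.33, limma adjusted p = 0.994). The row of lower level, NM_007506, had 6.67, 6.50 and 6.87 with miR-128, against 7.13, 7.26 and 7.15 in miR-Control. In that row the groups did not overlap, at a log2 fold change of -0.50 (SE 0.12, 95% interval -0.78 to -0.23), and its limma adjusted p of 0.393 was the smallest among the 45 rows. The higher row minus the lower one came to 2.52, 2.97 and 2.70 with miR-128 and 2.16, 2.04 and 2.58 in miR-Control on the log2 scale, so that miR-Control replicate 3 overlapped the miR-128 arrays in this difference. Which exons the probes of each row read is not given in the sources used here.

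In the other 3 genes with 2 rows, both rows had the same sign and overlapping groups. Atp5c1 differed by 0.04 and 0.03, Cox6b2 by -0.17 and -0.29, and Cox7a2l, which links complex III to complex IV in supercomplexes, by 0.13 and 0.03. In Cox7a2l the miR-128 arrays of the higher row ranged from 5.76 to 6.52, and 2 of the 3 controls lay inside that range.

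**Figure D3:**
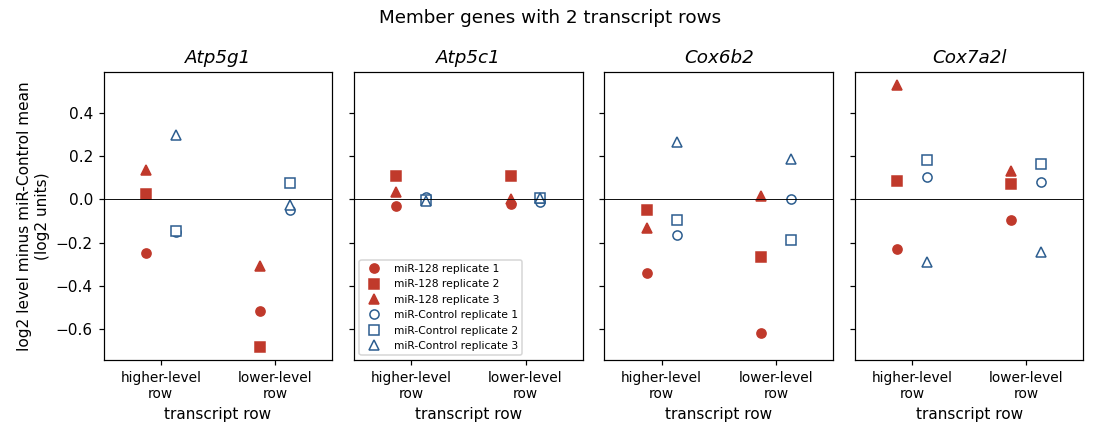
Log2 level minus the row's miR-Control mean on each array, for the 4 genes with 2 transcript rows, with miR-128 in red and miR-Control in open blue. In the lower-level row of Atp5g1 the miR-128 arrays, whose levels run from 6.50 to 6.87, lie below the controls at 7.13 to 7.26, while in its higher-level row the groups are mixed.

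Complex I and the mitochondrial ribosome, both also built from nuclear and mitochondrial gene products, are the closest comparisons. The complex I set was chosen by symbol, as Nduf followed by a, b, c, s or v and a number. It had 26 of 35 measured genes lower, with a median of -0.08. The set counts Ndufa4 and Ndufa4l2, at -0.13 and -0.03, whose place in complex I rests here on their names alone. Mitochondrial ribosomal proteins had 66 of 78 lower, with a median of -0.13, beside 28 of 41 and -0.08 for complexes II to V. Single genes went further there: Ndufa2 of complex I was at -1.05 (SE 0.15, limma adjusted p = 0.201) and Mrpl42 of the ribosome at -0.98 (SE 0.21, limma adjusted p = 0.362), while among complexes II to V the lowest was Atp5o at -0.34, or the lower-level row of Atp5g1 at -0.50. These sets share all 6 arrays with the members, and the difference between sets was not tested.

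The array pattern was also shared. The same complex I set had median deviations of -0.20, 0.03 and -0.08 in miR-128 replicates 1 to 3 and 0.11, 0.07 and -0.21 in miR-Control replicates 1 to 3. Complex V had -0.25, -0.08 and -0.15 with miR-128 and 0.11, -0.000834 and -0.12 in the controls, and complex II -0.32, -0.12 and -0.25 with miR-128 and 0.10, 0.07 and -0.18 in the controls. In complexes II and V miR-Control replicate 3 lay among the miR-128 arrays, in complex I it lay just below them, and in all 3 sets miR-128 replicate 1 was the lowest of its group.

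**Figure D4:**
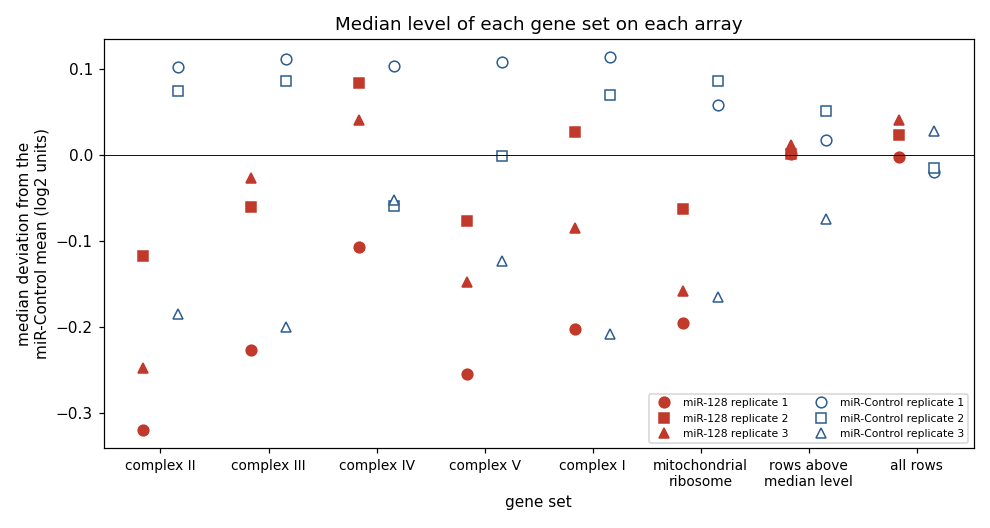
Median deviation from the miR-Control mean on each array, in log2 units, for each complex, the 2 comparison sets and all rows, with miR-128 in red and miR-Control in open blue. In complexes II, III and V miR-Control replicates 1 and 2 lie above all miR-128 arrays and replicate 3 lies between them, while in complex IV the groups are mixed.

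Proteins that assemble the complexes or work beside them were looked at in 8 lists of 78 measured genes. In all, 57 were lower and 21 higher with miR-128, 7 were lower and 0 higher at an unadjusted p under 0.05, and none passed the test. Over all rows 43.2% were lower, and 3.11% were lower and 4.04% higher at that p. The groups did not overlap in 10 list genes that were lower and 1 that was higher, where 4.87% and 6.98% of all rows did not. Of rows above the median level 47.9% were lower, and 4.78% were lower and 3.95% higher at that p. Without overlap, 7.34% of those rows were lower and 6.28% higher. Assembly factors of complex IV were lower in 20 of 23 genes, with a median of -0.09, although the subunits they assemble had no common direction. Lrpprc, which stabilises mitochondrial messenger RNAs, had 9.07, 9.21 and 9.39 with miR-128, against 10.45, 9.88 and 9.66 in miR-Control, a log2 fold change of -0.78 (SE 0.19, limma adjusted p = 0.416). All controls lay above all miR-128 arrays, and miR-Control replicate 1 stood highest.

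Coa7, a factor needed for the oxidase's assembly, had 7.62, 7.96 and 7.31 with miR-128, against 8.31, 8.03 and 8.17 in miR-Control, at -0.54 (SE 0.17, limma adjusted p = 0.521). Tmem70, which helps to build ATP synthase, had 8.78, 8.88 and 8.77 with miR-128, against 9.37, 9.26 and 9.10 in miR-Control, at -0.43 (SE 0.11, limma adjusted p = 0.418). Both were without overlap between the groups. The other 4 genes of complex V's list were Atpaf2 at -0.26, Tmem242 at -0.14, the inhibitor Atpif1 at -0.08 and Atpaf1 at 0.01.

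For complex III, 5 of 6 assembly factors were lower, with Uqcc3 at -0.36 (SE 0.14, limma adjusted p = 0.644) and Uqcc1 at -0.20 (SE 0.14, limma adjusted p = 0.870). The 4 factors of complex II were split evenly, with a median of 0.05. Sdhaf3, which acts in the maturation of the iron-sulphur subunit, had 8.44, 8.18 and 8.17 with miR-128, against 8.11, 8.13 and 7.68 in miR-Control, at 0.29 (SE 0.15, limma adjusted p = 0.759), and Sdhaf1 was at 0.11. In Sdhaf3 the miR-128 arrays were all above the controls, opposite to the means of the subunits.

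Among partners, 11 of 14 citrate cycle enzymes were lower with a median of -0.06, led by Idh2, the NADP-dependent isocitrate dehydrogenase of mitochondria, at -0.55 (SE 0.17, limma adjusted p = 0.515), and Mdh2, malate dehydrogenase, at -0.29. Carriers and porins were lower in 5 of 6 genes, with the outer membrane channels Vdac3 at -0.32 (SE 0.10, limma adjusted p = 0.568) and Vdac1 at -0.18. Cytochrome c genes gave -0.04 for Cycs, the somatic form, -0.18 for Cyct, the testis form, and 0.03 for Hccs, which attaches the haem. The Cyct row had a mean log2 level of only 3.91, far below the array medians. Regulators of respiratory gene transcription had no common direction, with 8 of 17 lower and a median of 0.00175. Among them Nrf1 was at -0.11, Gabpa at -0.07, Ppargc1a at -0.02, Tfam at 0.06 and Yy1 at 0.10, and the 2 of smallest p were Gabpb2 at -0.26 (limma adjusted p = 0.724) and Twnk at -0.25.

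**Figure D5:**
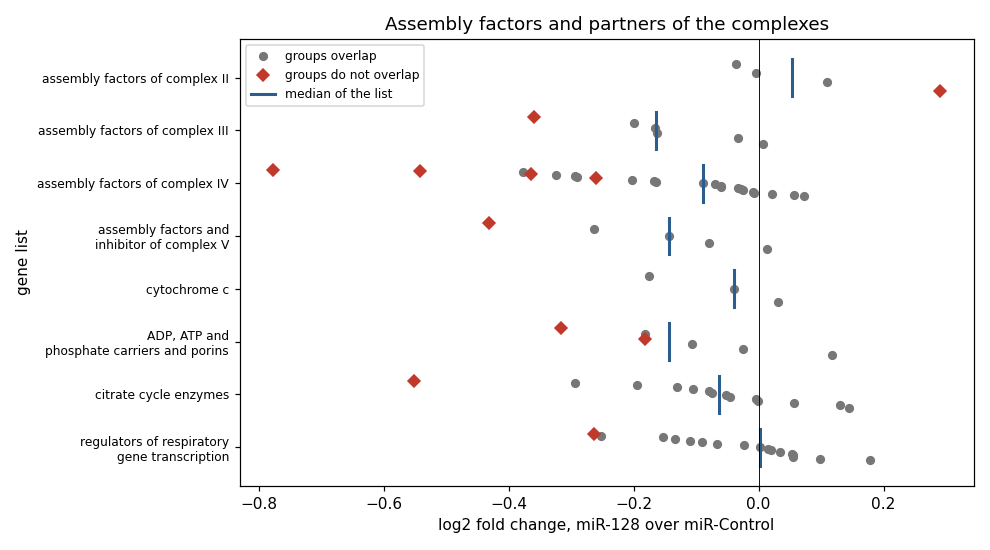
Log2 fold change of the 78 genes in the 8 lists of assembly factors and partners, miR-128 over miR-Control. Each point is a gene (n = 3 arrays per group), red diamonds mark genes whose groups do not overlap, and blue bars mark the median of each list. Lrpprc lies farthest to the left, at -0.78, and the complex II list holds the 1 diamond to the right of 0, Sdhaf3.

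Markers of other cell types also had means that differed between the groups, with none past the test. Over all rows 43.2% were lower with miR-128, and the median log2 fold change was 0.02. Medians were 0.16 for astrocyte, 0.24 for oligodendrocyte lineage, 0.04 for neuronal, 0.04 for microglial and 0.03 for vascular and mesenchymal markers. The microglial markers had mean log2 levels of 4.78 to 7.31, below the array medians. Astrocyte markers were higher with miR-128 in 5 of 5 genes, with a summed linear signal of 1656 to 1859 on miR-128 arrays and 1363 to 1467 on miR-Control arrays, led by Slc1a2 at 0.47 (SE 0.13, limma adjusted p = 0.456). Oligodendrocyte lineage markers were higher in 7 of 8, with sums of 8960 to 10750 with miR-128 and 8472 to 9042 in miR-Control. Neuronal markers were higher in 5 of 8 (sums of 6849 to 7573 with miR-128 and 6691 to 6961 in miR-Control), microglial ones in 6 of 6 (495 to 547 with miR-128 and 481 to 540 in miR-Control) and vascular and mesenchymal ones in 4 of 6 (768 to 863 with miR-128 and 741 to 893 in miR-Control). Stem cell markers were lower in 5 of 11, with sums of 31781 to 33659 with miR-128 and 32853 to 35115 in miR-Control. Such sums rest mostly on the rows of highest level and do not weigh the markers of a list equally. The highest neuronal marker had a mean log2 level of 12.57, where the log2 sums of that list were 12.71 to 12.89. For the oligodendrocyte lineage the highest was 12.34, where the log2 sums were 13.05 to 13.39. No marker was at 0, since these log2 values have no true zero. The part of these markers in the values of the respiratory genes was not tested, and fewer cells of a type and less RNA per cell cannot be told apart in such bulk samples.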

How the data were processed

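Expression was measured on 6 exon arrays, 3 of miR-128 and 3 of miR-Control neural stem cells, which the sample titles assign to groups. The deposited values are log2 expression values, 1 per transcript and array. Per the submitters' processing notes the authors used affy and RMA, with versions not stated. RMA corrects background, normalizes arrays and summarises probes, and tends to shrink fold changes. How probes were grouped, and on which genome build, is not stated there, and no detection p was used. Row accessions were matched without versions to RefSeq of GRCm38.p6, for names only, which named 25343 of 32025 rows. A row was found for 122 of 124 list genes.

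limma 3.58.1 (R 4.3.3) was fitted to all 32025 rows without a filter, miR-128 minus miR-Control, unpaired and two-sided, with Benjamini-Hochberg adjustment over all rows at 0.05. The procedure was tested on simulated data. SDs are over 3 arrays per group. SEs and intervals are limma's moderated ones, which also draw on the variance of all rows and so do not follow from the SDs of a gene alone. The labels do not tie replicates to separate animals or cultures, so p-values measure only the spread between these samples, which may be technical. The members, lists and tests were chosen with earlier results of these data known. Full statistics went to the 3 members of smallest p in each complex and to Sdha, Uqcrfs1, Cyc1, Cox4i1, Cox5a, Atp5b, Atp5g1 and Atp5g3, and list genes were the 2 of smallest p. Atp5pb was also given in full, outside this rule. The other genes were named from the lists after their values were seen. No set test was made. The alternatives were median centring, quantile normalization, a level filter, array weights, other variance priors, a replicate block, other row choices and leaving out each array.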

Additional observations from a re-analysis of the deposited data

How the results depend on the processing

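No member passed an adjusted p of 0.05 in any of the 16 settings, whose lowest adjusted p was 0.156, for Atp5e under array weights. Among all transcripts, the rows that passed numbered 24 under array weights and 4 when only rows above the median level were tested, where 7 of the 41 members drop out. The medians of complexes II, III and V were below 0 in 16 of 16 settings. The replicate block and the other variance priors cannot change a fold change here, so they only repeat the main medians. The level filter and a restriction to curated transcripts also left these 3 medians unchanged. Array weights moved the median of complex III to -0.17 and that of complex IV to -0.078, and leaving out 1 array gave a range from -0.19 to -0.0055 for complex III, against -0.02 with all arrays. Of 269 recomputed fold changes of 18 fully described genes, Atp5pb not among them, 10 turned in sign, all in genes near 0. The 269 include the replicate block, the other variance priors, the level filter and the curated transcripts. In those settings no sign could turn, so the share of 10 in 269 is not a measure of stability. Cox5a was at -0.0092 after median centring, -0.20 under array weights, and between -0.15 and 0.17 when 1 array was left out. Cox4i1 lay between -0.14 and 0.14 and Atp5g1 between -0.11 and 0.12 when 1 array was left out, and Atp5g1 was at 0.021 under array weights. The cause of these shifts was not tested. The labels do not say whether arrays of the same number were paired. Deviations of same-numbered arrays correlated at -0.00278, 0.17 and 0.05, and those of differently numbered arrays at -0.24 to 0.19. These few correlations cannot decide whether there was a pairing. A fit with the replicate block left 0 rows past the threshold and the lowest adjusted p of a member at 0.586. In this balanced design the block cannot move a fold change, so the median of the members stayed at -0.08 by design. With 3 arrays per group and no detection call, changes smaller than the half-width of an interval may be missed.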
